A study of Mus musculus with 16 samples.

Results

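Accessible regions of male germ cells that were listed around the time of mitotic arrest, and neither before nor after it, were examined in peak lists from ATAC-seq, an assay that uses a DNA-cutting transposase to tag open chromatin for sequencing. These regions, called transient peaks here, were selected on their overlap between lists: peaks of the E16.5 heterozygous list that shared at least 1 bp with the E16.5 knockout list and with the P0 list, and none with either E13.5 list or the P3 list. Of 53687 peaks in the E16.5 heterozygous list, 6731 (12.5%) met the rule. The study profiled gonocytes, the precursors of spermatogonia, from testes of mice carrying the Mvh-Venus reporter transgene, which the labels name without describing the promoter or the sorting gate. The groups were *Morc1* (+/-) and *Morc1* (-/-) germ cells, each at 4 stages: E13.5 and E16.5 (embryonic days), then P0 and P3 (postnatal days), with 2 samples in each of 8 groups. All groups shared the transgene, and the comparison group was heterozygous, not wild type.

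Gonocytes stop dividing in the fetal testis and return to the cell cycle after birth, on the way to becoming spermatogonia. During this arrest the genome, which had been stripped of most DNA methylation, is methylated again. DNMT3L and the de novo methyltransferases carry this out, and the piRNA pathway directs it to transposons. A peak in open chromatin marks a promoter, an enhancer or another site where nucleosomes are displaced.

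Each group is represented by 1 peak list with positions only, so there is no height, read depth or spread between replicates, and no test across samples was possible. The 2 P0 lists were identical in all 67258 rows and the 2 P3 lists in all 44760, so the genotype behind the P0 and P3 conditions is unknown. Whether peaks were called on both genotypes together or the list of 1 genotype was given for both is not stated in the sources used here. Intervals in brackets are 95% Wilson intervals over peaks and cover counting error only. Absence from a list means that no peak was called there. With 44760 peaks at P3 against 67258 at P0, closing of a site, a weaker signal and a shallower library cannot be told apart. In bulk samples a site open in fewer cells and a site less open in each cell cannot be told apart either.

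Few transient peaks lay at an annotated start: 1.99% had one within 250 bp of the centre, against 18.2% of all E16.5 heterozygous peaks. These few included starts of factors of germline methylation and pluripotency. Genes of the pathways listed below did not have a transient peak more often than others (10 of 222, 4.50%, against 5.36% of protein-coding genes). The start windows printed here stand for this small part of the transient peaks only. A start window is the RefSeq sequence (GRCm38.p6) from 250 bases before to 50 bases after an annotated transcription start. The windows below lay wholly within a transient peak and are printed 5′ to 3′ on the strand of the gene, with every CpG dinucleotide in capitals, because CpG content set these starts apart from those open at all stages. *Dnmt3l*, *Pou5f1* and *Tdrd9* are the genes of the listed pathways among them, *Celf3*, *S100a8* and *Alas2* are among the other genes whose window was centred nearest to the peak centre, and *Dgka* is a CpG-rich contrast.
Dnmt3l (chr10:78049592-78049891, + strand): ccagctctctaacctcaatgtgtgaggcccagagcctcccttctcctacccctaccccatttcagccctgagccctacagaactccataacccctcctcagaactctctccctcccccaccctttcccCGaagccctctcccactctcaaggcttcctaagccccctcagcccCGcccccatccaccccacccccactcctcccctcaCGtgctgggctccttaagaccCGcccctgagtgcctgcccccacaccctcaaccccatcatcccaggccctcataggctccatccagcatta
Pou5f1 (chr17:35505782-35506081, + strand): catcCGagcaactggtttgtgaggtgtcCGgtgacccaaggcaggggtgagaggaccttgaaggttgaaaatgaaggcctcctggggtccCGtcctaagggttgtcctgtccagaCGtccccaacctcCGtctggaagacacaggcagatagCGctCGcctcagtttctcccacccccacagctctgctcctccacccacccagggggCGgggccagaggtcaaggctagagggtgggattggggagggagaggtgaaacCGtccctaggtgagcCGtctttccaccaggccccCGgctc
Tdrd9 (chr12:111971309-111971608, + strand): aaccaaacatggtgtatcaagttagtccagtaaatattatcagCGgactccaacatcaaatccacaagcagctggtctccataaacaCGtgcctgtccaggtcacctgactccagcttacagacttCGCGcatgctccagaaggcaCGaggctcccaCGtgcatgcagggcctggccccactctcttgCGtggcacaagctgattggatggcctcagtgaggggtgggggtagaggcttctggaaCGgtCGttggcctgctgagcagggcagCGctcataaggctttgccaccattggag
Celf3 (chr3:94484080-94484379, + strand): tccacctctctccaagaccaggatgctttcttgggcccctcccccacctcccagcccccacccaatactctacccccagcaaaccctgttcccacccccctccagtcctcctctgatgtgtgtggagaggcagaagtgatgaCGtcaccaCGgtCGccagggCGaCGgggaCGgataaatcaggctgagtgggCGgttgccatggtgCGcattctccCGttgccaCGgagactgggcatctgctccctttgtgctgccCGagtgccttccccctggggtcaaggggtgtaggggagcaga
S100a8 (chr3:90668821-90669120, + strand): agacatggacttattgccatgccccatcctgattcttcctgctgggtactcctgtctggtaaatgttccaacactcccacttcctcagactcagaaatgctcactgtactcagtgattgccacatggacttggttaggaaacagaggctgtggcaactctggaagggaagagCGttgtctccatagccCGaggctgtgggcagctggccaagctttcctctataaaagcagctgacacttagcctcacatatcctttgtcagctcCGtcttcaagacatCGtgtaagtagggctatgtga
Alas2 (chrX:150547167-150547466, + strand): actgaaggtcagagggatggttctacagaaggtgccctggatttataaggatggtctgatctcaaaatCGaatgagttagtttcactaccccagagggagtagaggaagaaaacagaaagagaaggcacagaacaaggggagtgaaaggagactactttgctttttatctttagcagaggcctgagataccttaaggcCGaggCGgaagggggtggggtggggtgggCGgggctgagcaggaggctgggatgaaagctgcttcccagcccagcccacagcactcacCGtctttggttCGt
Dgka (chr10:128743829-128744128, - strand): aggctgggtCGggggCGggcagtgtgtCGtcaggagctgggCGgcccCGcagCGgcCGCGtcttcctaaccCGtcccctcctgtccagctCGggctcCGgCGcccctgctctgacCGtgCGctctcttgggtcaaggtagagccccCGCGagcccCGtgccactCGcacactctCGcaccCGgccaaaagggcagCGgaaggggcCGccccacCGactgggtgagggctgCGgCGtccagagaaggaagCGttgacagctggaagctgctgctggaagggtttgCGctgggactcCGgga

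The *Dnmt3l* window held 4 CpG, the *S100a8* window 4, the *Alas2* window 6, the *Tdrd9* window 10, and the *Pou5f1* and *Celf3* windows 11 each. The *Dgka* window held 28. Among 17492 protein-coding genes with a start window, 35 (0.200%) had one wholly within a transient peak, chromosome 18 not being used for start windows. Taking 1 window per gene, these 35 held a median of 10 CpG (quartiles 5.50 and 17) and a median GC content of 57.7%. The 63 genes whose start lay within a peak gained by E16.5 and kept at P3 had similar windows, with a median of 11 CpG and 56.0% GC. Starts within peaks present in all 6 lists, 4210 genes, held a median of 25 CpG and 65.0% GC. Windows with 5 or fewer CpG made up 25.7% of the transient starts, 14.3% of the kept starts and 0.618% of the starts open in all lists, and 32.7% of all start windows. Transient starts were thus CpG-poor relative to constitutively open starts, and their CpG content was nearer to that of starts in general.

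Motifs spelled out here were searched on both strands, among 29 in all. The GC box GGGCGG was found in 15 of 35 transient starts (42.9%, interval 28 to 59.1), in 44.4% of kept starts, in 79.3% of starts open in all lists and in 46.3% of all starts. The ETS core CCGGAA was found in 2 of 35 (5.71%, interval 1.58 to 18.6) and in 14.3% of kept starts. Its share was 31.9% in starts open in all lists and 19.1% in all starts. The SOX core ACAAAG was found in 8 of 35 (22.9%, interval 12.1 to 39.0) and in a similar 22.2% of kept starts. It was found in 8.72% of starts open in all lists and in 16.7% of all starts. The nuclear receptor half-site AGGTCA, which is also part of the longer NR5A/ESRR motif searched, was found in 8 of 35 (22.9%), against 9.52% of kept starts and 14.5% of all starts. The TATA box TATAAA was found in 5 of 35 (14.3%, interval 6.26 to 29.4), in 0 of 63 kept starts and in 13.3% of all starts. Of the 29 motifs, the ETS core and the NRF1 motif GCGCATGC had intervals that left out the share over all starts, in opposite directions. The intervals were not adjusted for the number of motifs searched, and each of these had a bound near that share. The NRF1 motif was found in 4 of 35 (11.4%, interval 4.54 to 26), against 6.35% of kept starts, 5.94% of starts open in all lists and 3.61% of all starts. A match is a string of letters in a window and no evidence of binding.

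Among the overlap patterns of E16.5 heterozygous peaks, the transient one was the third in frequency. Peaks present in all 6 lists numbered 17186 (32.0%), and peaks gained by E16.5, held at P0 and kept at P3 numbered 9491 (17.7%). A further 3690 peaks (6.87%) lay in both E16.5 lists only. Stepwise, 43678 of the 53687 peaks were also in the E16.5 knockout list, 37309 of these in the P0 list, and 16222 of these in neither E13.5 list. These 16222 gained peaks comprise the 6731 transient and the 9491 kept peaks, so that 41.5% of gained peaks were transient.

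**Figure D1:**
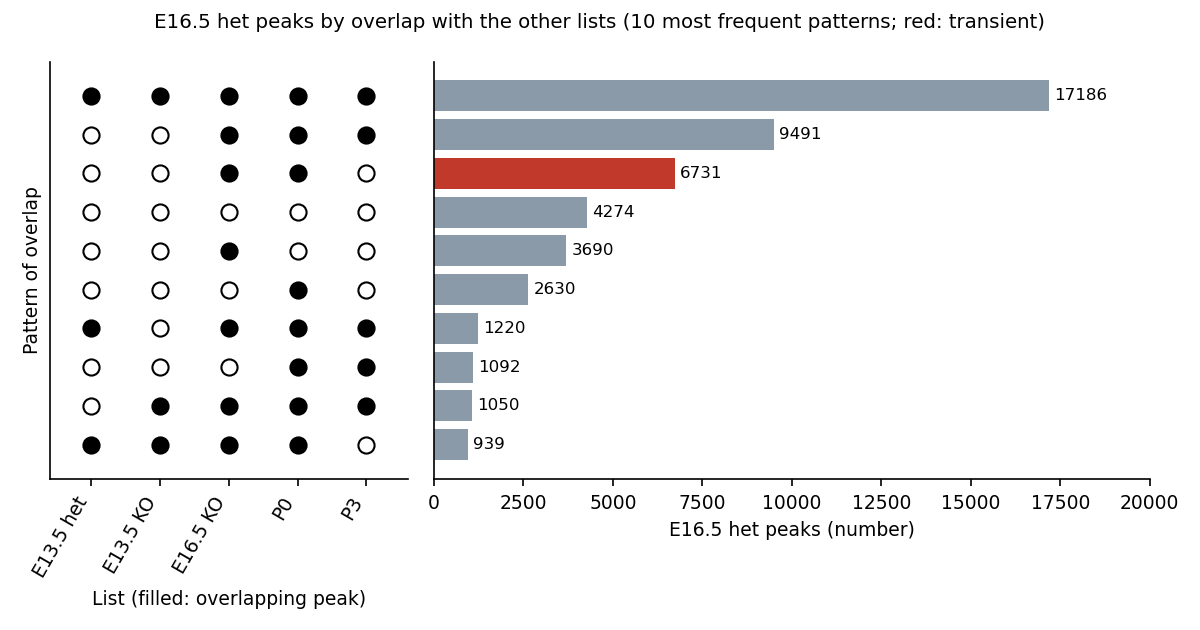
The 10 most frequent overlap patterns of E16.5 heterozygous (het) peaks, with filled circles marking lists (KO, knockout) that hold an overlapping peak and bars giving the number of peaks. The red bar of 6731 transient peaks follows 17186 peaks in all lists and 9491 gained and kept.

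The required overlaps were seldom marginal. A transient peak shared a median of 461 of its 501 bp with its E16.5 knockout counterpart and 451 bp with its P0 counterpart. The centres lay a median of 40 bp and 50 bp apart, and 54 and 34 transient peaks had exactly the same coordinates in those lists. For gained and kept peaks the median offsets were 36 bp and 42 bp, and for peaks in all lists 27 bp and 34 bp. Just inside the rule, 45 transient peaks (0.669%) were held by 50 bp or less in a required list, and 37 (0.550%) had a peak of an excluded list within 50 bp. Just outside it, 69 peaks were left out by an overlap of 50 bp or less with the excluded lists, and 45 by a gap of 50 bp or less to 1 required list.

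The rule removed peaks that overlapped an E13.5 or P3 peak, so the distances to those lists are fixed by it in part. The nearest E13.5 peak lay a median of 43.1 kb away in the heterozygous list and 44.5 kb in the knockout list, and the nearest P3 peak 18.5 kb. Taking these 3 lists together the median was 14.0 kb, and 2551 transient peaks (37.9%) had one of their peaks within 10 kb. Within 10 kb a P3 peak was found for 1980 transient peaks (29.4%, interval 28.3 to 30.5), and within 500 bp for 182 (2.70%). Peaks of both E16.5 lists only had a P3 peak within 10 kb in 30.6% (interval 29.1 to 32.1), but lay nearer to E13.5 heterozygous peaks, at a median of 24.5 kb.

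Most transient peaks lay outside annotated genes and more than 1000 bp from their outer ends. Between genes lay 4451 (66.1%, interval 65.0 to 67.2), elsewhere within a gene 1642 (24.4%, interval 23.4 to 25.4), and within 1000 bp of an outer gene end 638 (9.48%, interval 8.80 to 10.2). Among all E16.5 heterozygous peaks the shares were 43.3%, 27.1% and 29.6%, and among peaks in all 6 lists 15.9%, 20.1% and 64.0%. Gained and kept peaks resembled the transient ones, with 65.0% between genes (interval 64.0 to 65.9) and 11.5% at gene ends (interval 10.9 to 12.2), although the intervals of the gene-end shares were apart. Peaks of both E16.5 lists only were more often within genes (39.6%, interval 38 to 41.2). An annotated start lay within 250 bp of the centre of 1.99% of transient peaks (interval 1.68 to 2.36), 3.03% of kept peaks (interval 2.70 to 3.40) and 48.6% of peaks in all lists. The median distance to the nearest outer gene end was 25.9 kb for transient and 23.0 kb for kept peaks.

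**Figure D2:**
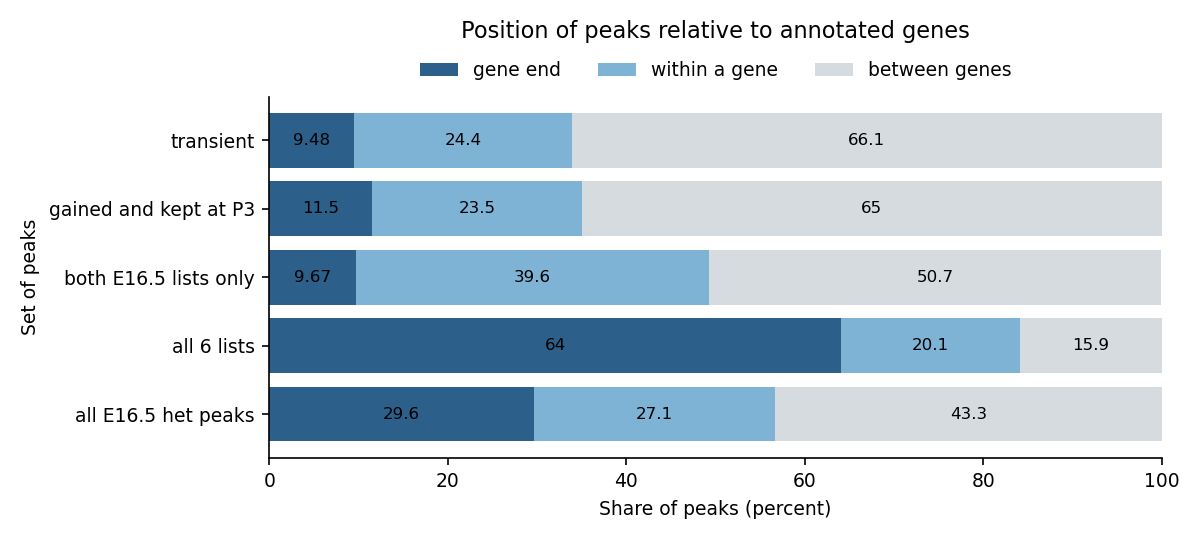
Share of peaks (percent, horizontal axis) within 1000 bp of an outer gene end, elsewhere within a gene, or between genes, for 5 sets of peaks (vertical axis). Transient peaks lay between genes in 66.1% and at gene ends in 9.48%, close to gained and kept peaks and unlike peaks in all 6 lists.

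A transient peak lay within, or 1000 bp from, 1173 of 21887 protein-coding genes (5.36%), and a gained and kept peak in 1528 (6.98%). Against this background the listed pathways stood as follows. Of the pluripotency genes, 1 of 17 had a transient peak (5.88%), of the genes of germ cell identity and male fate 1 of 21 (4.76%), and of the cell cycle and arrest genes 2 of 34 (5.88%). The piRNA pathway had 2 of 24 (8.33%) and the matched DNA methylation genes 2 of 13 (15.4%). Retinoid signalling had 1 of 20, and TGF-beta, activin and BMP signalling 1 of 32 (3.12%). None was found at 26 meiotic genes, at 25 genes of spermatogonial stem cells and differentiation, or at 18 genes of H3K9 methylation and heterochromatin. Together 10 of 222 genes (4.50%) had a transient peak, near the share over all protein-coding genes.

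In 4 of these 10 genes the transient peak lay at a transcription start. At *Pou5f1*, which encodes the pluripotency factor OCT4, it lay at chr17:35505708-35506208, with its centre 74 bp upstream of the start, and was the only E16.5 heterozygous peak of the gene. It shared 448 bp with the E16.5 knockout peak and 426 bp with the P0 peak. The nearest E13.5 peaks were 1366 bp (heterozygous) and 1363 bp (knockout) away, and the nearest P3 peak 10554 bp. At *Tdrd9*, a tudor-domain helicase of the nuclear piRNA machinery, the peak at chr12:111971303-111971803 had its centre 6 bp from the start. At *Dnmt3l*, the catalytically inactive partner of the de novo methyltransferases, the peak at chr10:78049481-78049981 had its centre 111 bp upstream of an annotated start inside the gene's outer bounds. At *Bmp4*, a ligand of the BMP family, the peak at chr14:46390411-46390911 was centred 8 bp from the start and was the only E16.5 heterozygous peak of the gene. For *Tdrd9*, *Dnmt3l* and *Bmp4* the nearest peaks of the E13.5 and P3 lists lay between 2676 and 7229 bp away.

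In the other 6 the peak lay away from the listed starts, or, for *Trp63*, no start was listed. *Dnmt3a*, a de novo methyltransferase, had 1 transient peak among 7 E16.5 heterozygous peaks, at chr12:3816941-3817441, 10031 bp from the nearest listed start. *Nodal*, a signal of the early male germline, had its only E16.5 heterozygous peak at chr10:61423236-61423736, 5514 bp downstream of the start. *Nodal* and *Bmp4* each also held 1 peak in each E13.5 list, elsewhere in the gene or within 1000 bp of it. The *Henmt1* peak at chr3:108979835-108980335 met the far end of the gene, which encodes the methyltransferase of piRNA 3′ ends. The same peak lay wholly within *Fam102b*, a gene that overlaps this end. *E2f3*, a cell cycle transcription factor, *Trp63*, which encodes the transcription factor p63, and *Rarb*, a retinoic acid receptor, had 1 transient peak each within the gene, among 3, 2 and 11 E16.5 heterozygous peaks.

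Markers of the cell types of the testis were checked in the same way. The share over all protein-coding genes was 5.36%, and each marker list is short. No transient peak lay at the 7 germ cell marker genes. Of 8 Sertoli cell markers 2 had one, *Wt1* with 2 of its 4 E16.5 heterozygous peaks and *Fshr* with 1 of 3. The *Fshr* peak lay outside the gene, with its centre 1165 bp upstream of the start, and was counted through the 1000 bp flank. Among the fetal Leydig cell markers 1 of 6 had one (*Cyp11a1*), among the interstitial and peritubular markers 1 of 7 (*Myh11*), and at 4 endothelial and 4 macrophage markers there was none. Across the 6 lists, a peak of any kind lay at 5 to 6 of the 7 germ cell markers, 4 to 6 of the Sertoli, 2 to 3 of the Leydig, 6 to 7 of the interstitial, 2 to 4 of the endothelial and 1 of the macrophage markers. A peak at a gene does not measure its transcription, and the part of other cell types in the transient peaks was not tested.

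The genes with the most transient peaks were long ones. The 20 protein-coding genes with the most transient peaks were 407 to 2390 kb long and held 216 of them, 30.5% of their 708 E16.5 heterozygous peaks. The ranking used this count, so the share is a description. *Ptprd*, a receptor tyrosine phosphatase of synapses, had 19 transient peaks among 55, *Cntnap2*, a neurexin-family adhesion protein, 16 among 39, and *Cadm2*, an immunoglobulin-family adhesion molecule, 15 among 34. *Galntl6* had 14 among 52, *Lingo2* 13 among 40, *Lrp1b* 12 among 71, *Fstl5* 11 among 33, *Naaladl2* 11 among 59 and *Csmd3* 10 among 25. The cadherins *Cdh18* and *Cdh12* had 9 among 43 and 8 among 31, the neural adhesion genes *Ncam2* and *Cntn5* 8 among 23 and 8 among 27, and the ephrin receptor *Epha6* 8 among 40. *Klhl1* had 9 among 20, *Ralyl* 9 among 35 and *Brinp3* 7 among 20. The X-linked genes of this group were *Il1rapl1*, an interleukin-1 receptor family protein of synapses, with 13 among 19, and *Dmd*, which encodes dystrophin, with 8 among 15.

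The counts per list in these 20 genes show the rise and fall, which the choice of genes fixes in part. Together they held 168 peaks in the E13.5 heterozygous list and 140 in the E13.5 knockout list. The E16.5 lists had 708 (heterozygous) and 711 (knockout) there, the P0 list 902 and the P3 list 328. As shares of the whole lists these were 0.415%, 0.354%, 1.32%, 1.24%, 1.34% and 0.733%. *Il1rapl1* went from 1 peak in each E13.5 list to 19 and 20 in the E16.5 lists and 44 in the P0 list, and had 2 in the P3 list. *Dmd* had 6 and 3 peaks in the E13.5 lists, 15 and 22 in the E16.5 lists, 55 in the P0 list and 3 in the P3 list.

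**Figure D3:**
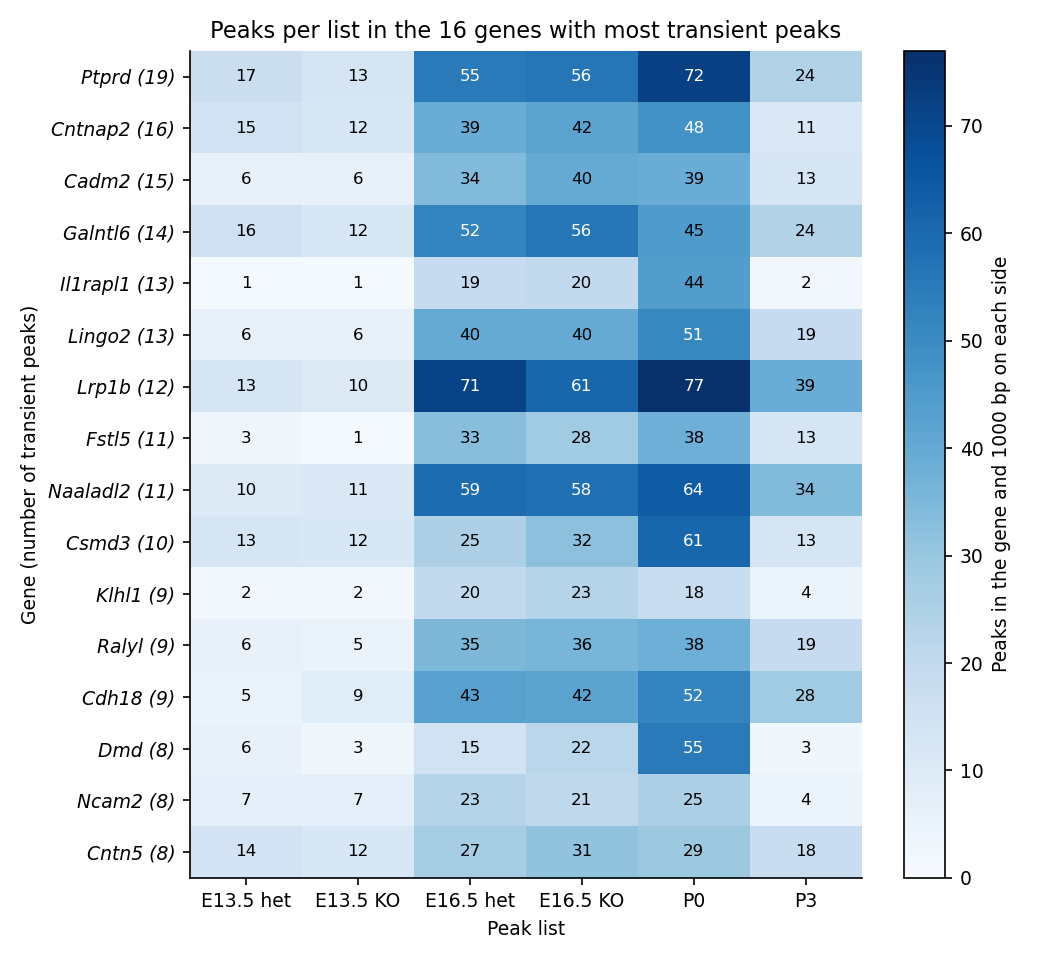
Number of peaks in each of the 6 distinct lists (columns) within the first 16 of these protein-coding genes and 1000 bp on each side (rows), ordered by their number of transient peaks, which is given in parentheses. Counts are highest at E16.5 and P0, as in *Il1rapl1* with 1, 1, 19, 20, 44 and 2 peaks.

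Per unit of length, among genes with at least 3 transient peaks, *Klhl1* ranked first with 2.16 per 100 kb, followed by *Ncam2* (1.88), *Aff1* (1.82), *Cdh7* (1.82) and *Fstl5* (1.72). In *Kctd8* 4 of 6 E16.5 heterozygous peaks were transient, in *Aff1* 3 of 5 and in *Adamts3* 3 of 6. The count and the density ranking had 11 of 20 genes in common. Longer genes more often held at least 1 transient peak: 1.75% of genes under 10 kb had one, 6.22% of genes of 30 to 100 kb and 37.5% of genes of 300 kb or longer. Gained and kept peaks followed the same gradient, with 2.42%, 8.02% and 50.4%. Per Mb of gene and flanks, however, transient peaks were densest in the shortest genes, at 2.87. They ranged from 1.03 to 1.90 in the 4 longer classes, with 1.87 in the longest. Gained and kept peaks were likewise densest in the shortest genes, at 3.97, with 2.52 in the longest. Of the E16.5 heterozygous peaks within each length class, the transient share was 3.45% in the shortest genes, 4.53% at 30 to 100 kb and 13.4% in the longest. Gained and kept peaks rose too, from 192 of 4029 peaks in the shortest genes to 806 of 4452 in the longest.

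Along the chromosomes, transient peaks were spread over 5143 windows of 100 kb, of which 3919 held 1 and 9 held 5 or more. The fullest windows held 6 transient peaks among 7 E16.5 heterozygous peaks. They were chr5:80200001-80300000, with no annotated gene and *Adgrl3* 719 kb away as the nearest protein-coding gene, and chr14:92300001-92400000, 614 kb from *Pcdh9*. Windows within *Ptprd* (chr4:77400001-77500000) and *Fstl5* (chr3:76200001-76300000) held 5 each. The window chr7:84900001-85000000, with the chemosensory receptor genes *Olfr290*, *Vmn2r65* and *Vmn2r66*, held 5 among 8. Another transient peak lay within 10 kb of 7.59% (interval 6.98 to 8.25), a share close to the 7.43% among gained and kept peaks. Runs of adjacent E16.5 heterozygous peaks that were all transient reached 7 peaks. One such run spanned 299 kb within *Cntnap2*, and another 109 kb of chromosome 14 without a protein-coding gene (chr14:94339108-94447785). A run of 7 on the X chromosome spanned 10308 kb that includes *Slx* and genes of the Btbd35f family, and its 7 peaks were the only E16.5 heterozygous peaks there.

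Gene-poor surroundings were shared with the other gained peaks. The 1 Mb window of a transient peak held a median of 2 protein-coding genes, as for gained and kept peaks, compared with 6 for all E16.5 heterozygous peaks and 11 for peaks in all lists. The transient share of E16.5 heterozygous peaks fell from 24.0% (interval 23 to 25) in windows with 0 protein-coding genes to 6.52% (interval 6.02 to 7.06) in windows with 20 or more. Among gained peaks alone, the transient share varied little with gene density, at 42.7%, 42.4%, 39.2%, 38.5% and 43.0% in windows with 0, 1 to 4, 5 to 9, 10 to 19 and 20 or more genes. The gene density around gained peaks absent from P3 was thus close to that around gained peaks kept at P3.

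The X chromosome stood apart. It held 490 transient peaks, 7.28% of them (interval 6.68 to 7.93), against 3.55% of gained and kept peaks (interval 3.20 to 3.94), 3.69% of peaks of both E16.5 lists only and 3.07% of peaks in all lists. Of the 1966 X-linked peaks of the E16.5 heterozygous list, 24.9% were transient (interval 23.1 to 26.9), against 12.1% of autosomal peaks (interval 11.8 to 12.3). Single autosomes ranged from 4.03% (chromosome 11) to 16.4% (chromosome 14). The X share of the whole lists was 2.70% and 2.49% in the E13.5 lists (heterozygous and knockout) and 3.66% and 4.05% in the E16.5 lists. It was 4.51% in the P0 list and 2.65% in the P3 list. These shares were larger in the longer lists, except that the P3 share lay slightly below that of the shorter E13.5 heterozygous list. The E13.5 and P3 lists held 40448, 39559 and 44760 peaks, the E16.5 lists 53687 and 57117, and the P0 list 67258. Whether list length or read depth accounts for the X values given here and below was not tested. On the Y chromosome 4 of 15 peaks were transient.

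Among gained peaks, 59.3% of those on the X chromosome were transient (490 of 827, interval 55.9 to 62.5), against 40.5% on the autosomes (6237 of 15390, interval 39.8 to 41.3). No autosome reached this value: the highest was chromosome 12 with 48.5% (interval 44.9 to 52.1) and the lowest chromosome 19 with 30.3%. The difference was present within gene-density classes. In windows with 0 genes the transient share was 57.2% on X and 42.1% on autosomes, with 1 to 4 genes 62.5% and 40.6%, with 5 to 9 genes 51.2% and 38.6%, and with 10 to 19 genes 59.7% and 37.7%. In windows with 20 or more genes it was 41.2% on X and 43.0% on autosomes, but only 17 gained X peaks lay there. Of 2045 windows of 1 Mb with at least 10 E16.5 heterozygous peaks, 20 were at least 50% transient, and 13 of these lay on X, which contributed 96 of the windows. They included the window chrX:87000001-88000000 within *Il1rapl1*, with 9 of 12, and chrX:116000001-117000000, with *Cpxcr1* and the histone variant gene *H2ab2*, with 17 of 23.

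**Figure D4:**
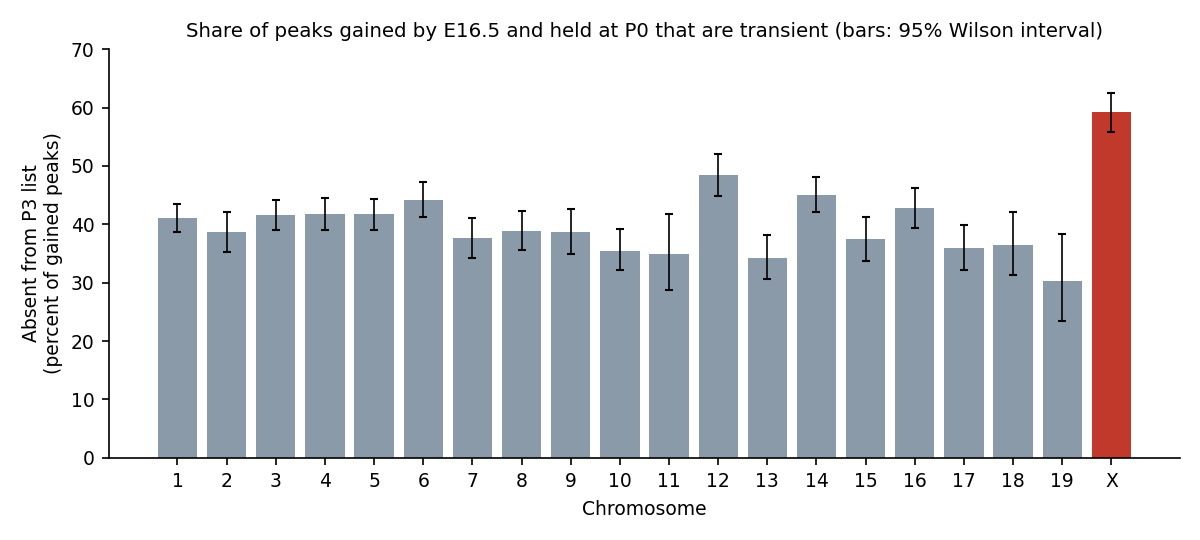
Percent of the peaks gained by E16.5 and held at P0 that were absent from the P3 list (vertical axis), for each autosome and the X chromosome (horizontal axis), with 95% Wilson intervals. The X chromosome stands at 59.3%, above every autosome, the highest of which is chromosome 12 at 48.5%.

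The same measure was taken in P0 peaks that the rule did not use, though against the same P3 list. Of P0 peaks shared with the E16.5 heterozygous list alone and with no E13.5 list, 86.3% on X (interval 79.8 to 91.0) and 69.8% on autosomes (interval 68.2 to 71.2) were absent from P3. For P0 peaks shared with the E16.5 knockout list alone the values were 87.1% (interval 83.0 to 90.4) and 62.6% (interval 61.2 to 64.0). For P0 peaks in no earlier list they were 94.7% (interval 93.2 to 95.9) and 80.6% (interval 80.0 to 81.2). In P0 peaks that were present in all 4 fetal lists, 6.38% on X (interval 4.65 to 8.71) and 5.17% on autosomes (interval 4.85 to 5.51) were absent from P3, with overlapping intervals. The larger share absent from P3 on the X chromosome was therefore seen in each class of peaks missing at E13.5, and was not detectable in the class present from E13.5 on. Whether it exceeds the difference between replicate samples could not be measured.

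**Figure D5:**
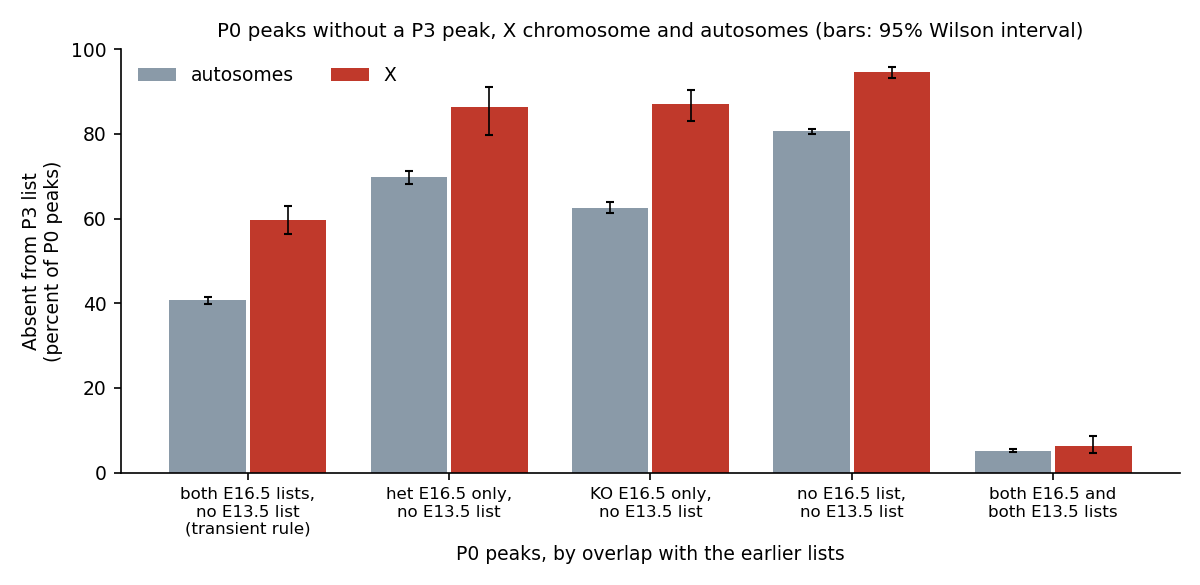
Percent of P0 peaks with no overlapping P3 peak (vertical axis) in 5 classes by overlap with the earlier lists (horizontal axis), on autosomes (grey) and the X chromosome (red), with 95% Wilson intervals. The X value is higher in the 4 classes without an E13.5 peak, for example 87.1% against 62.6%, and the intervals overlap in the class present at E13.5 and E16.5.

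Peaks that missed the rule in only 1 genotype were compared by their X share. At E16.5, 2630 heterozygous peaks met all conditions except presence in the knockout list, and 3174 knockout peaks met all except presence in the heterozygous list. The X chromosome held 4.87% of the former (interval 4.11 to 5.76) and 8.44% of the latter (interval 7.53 to 9.46). The whole lists had 3.66% (heterozygous) and 4.05% (knockout), below both intervals. The knockout-only share was the higher of the 2, with intervals that did not overlap. Of peaks that met all conditions except absence from 1 E13.5 list, X held 6.34% (21 of 331, interval 4.19 to 9.5) where the E13.5 peak was in the heterozygous list and 2.77% (10 of 361, interval 1.51 to 5.02) where it was in the knockout list. The order of the genotypes was thus the opposite there, with overlapping intervals. With 1 list per genotype, an effect of *Morc1* and a difference between libraries cannot be told apart.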

How the data were processed

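Nuclei of germ cells were tagmented and amplified, per the labels' protocols. Per the submitters' processing notes, bcl2fastq 2.20, cutadapt 1.18, Bowtie2 2.3.4.1, deepTools 3.5.0, HOMER 4.10 and build mm10 were used; roles, peak threshold, duplicate handling and pooling of replicates are not given in the sources used here. The authors deposited 8 lists of peak positions (start and end in bases), 501 bp wide with few exceptions, with no score or count, so depth is unknown.

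Groups came from sample titles. Overlap meant at least 1 bp. Positions are 1-based mm10, and gene bounds (49943 genes) and start windows are RefSeq GRCm38.p6. The transient count was checked with bedtools 2.31.1, with an equal result, and the overlap code on simulated data (3000 of 3000 planted regions found). Computation used Python 3.11.15, pandas 2.3.3 and scipy 1.17.1. The design called for transcription starts where strand was given; since the start table covers part of the genes, outer gene ends were the main measure. GC content, repeats and motifs of the peaks themselves were not analysed here, as no genome sequence was used.

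The members, 10 gene lists, 6 marker lists and 29 motifs were chosen with earlier results of these data known; gene-density classes and the X chromosome classes were chosen after seeing the peak positions. Named genes are the listed genes with a transient peak, the top 20 genes by count and by density (at least 3 peaks), the 10 fullest 100 kb windows, and up to 20 start windows, listed genes first and then those nearest a peak centre. One gene of the top 20 by count is not reported here by name, and totals over the 20 include it. Genes outside this rule that are named for a single window were chosen after their values were seen. *H2ab2*, *Cpxcr1*, *Slx* and the Btbd35f genes are such cases. *Fam102b* is named because it overlaps a listed gene.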

Additional observations from a re-analysis of the deposited data

How the results depend on the processing

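No paired analysis was possible because the peak lists hold 1 set of positions per condition, without replicate values. Leaving out a replicate could not be done either. A stricter peak threshold was not run, since the lists give no score. With no test, shares outside the 95% interval of the reported value were counted as moved, as were counts changed by over 1.5 times. Of 49 recomputed values for 10 results, 43 stayed and 6 moved. The gene-end share became 7.12% with windows of 500 bp and 3.64% with protein-coding genes only, which raised the share between genes to 76.5%. Clustering within 5 kb in place of 10 kb gave 0.891%. These 4 follow from narrower windows or fewer genes. The transient share of gained autosomal peaks became 43.0% under a reciprocal overlap of 50% and 39.7% when absence meant no peak within 500 bp. Both settings change which peaks count as absent, and the reciprocal one also changes which count as present. The part of each change was not tested. On X the values were 60.7% and 58.9%. These X and autosome alternatives were chosen after seeing the data. The reciprocal rule gave 6731 transient peaks by coincidence, of which 6177 (91.8%) met the 1 bp rule as well. Starting from the E16.5 knockout list or the P0 list gave 6747 and 6738 peaks, 98.8% of each overlapping the reported set.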

Other observations

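Gene families, grouped by symbol, ranged widely in how many of their E16.5 heterozygous peaks were transient. Over all protein-coding genes and 1000 bp on each side the share was 6.31% (1585 of 25106). In the vomeronasal receptor genes (symbols starting with Vmn, 355 genes), which encode pheromone receptors of the nose, 17 of 54 such peaks were transient (31.5%, 95% Wilson interval 20.7 to 44.7). In the olfactory receptor genes (Olfr, 1110 genes) 18 of 92 were transient (19.6%, interval 12.7 to 28.8), and in the protocadherin genes (Pcdh, 69 genes), which encode neural adhesion proteins, 18 of 120 (15.0%, interval 9.70 to 22.5). Within the latter, the clustered Pcdha, Pcdhb and Pcdhg genes had 4 of 33 (12.1%, interval 4.82 to 27.3) and the other 12 genes 14 of 87 (16.1%, interval 9.83 to 25.2). The zinc finger genes named Zfp (397 genes) had 27 of 516 (5.23%, interval 3.62 to 7.51), the histone genes 1 of 48 (2.08%, interval 0.369 to 10.9), and the Hox genes 4 of 24 (16.7%, interval 6.68 to 35.9). Gained and kept peaks in the same families numbered 18 for Vmn, 26 for Olfr, 27 for Pcdh, 31 for Zfp, 3 for the histone genes and 0 for Hox, so that all but Hox had at least as many kept as transient peaks. How reads from near-identical receptor and zinc finger copies were assigned is not given in the sources used here.

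Of 1005 annotated miRNA hairpins, 53 met an E16.5 heterozygous peak and 4 met a transient one: *Mir6985*, *Gm23363*, *Mir6379* and *Mir8117*. A gained and kept peak met 5 hairpins. Among all E16.5 heterozygous peaks 12.5% were transient, so these 4 hairpins do not stand out.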
